A study of Mus musculus with 6 samples.

Results

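The genes described here are 21 named genes whose names lie outside the groups listed below. Each had 1 probe whose signal in the mouse ovary was lower on day 4 after birth than on day 0 on every day 4 array. The 21 genes were taken from 8272 probes by 3 conditions. The mean log2 ratio of day 4 over day 0 had to be -0.5 or lower on all 3 day 4 arrays. The clone annotation had to give a gene name. Names of ribosomal, proteasome, ubiquitin, chaperonin, heat shock, translation, splicing, ribonucleoprotein, cyclin, histone, collagen, keratin, solute carrier, hemoglobin, insulin-like, NADH and cytochrome c genes were left out. Of the 8272 probes, 5270 had a value on all 3 day 4 arrays, and 52 of these, 0.987%, lay at -0.5 or lower on all 3. No gene name was given for 27 of the 52, and 4 had names that were left out. Among the 1756 probes with a usable name and 3 values, the 21 made up 1.2%. The day 4 ratios chose these genes, so they are given below as a description, with no test.

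Total RNA came from whole ovaries of C57Bl/6J mice, a common inbred strain, aged 2 days (3 RNA samples), 4 days (3 RNA samples) and under 1 day, called day 0 (5 RNA samples). The study addressed gene expression while ovarian follicles form and begin to grow. Each of 6 two-colour spotted cDNA arrays held a later day in Cy5 and day 0 in Cy3, so a dye effect particular to a gene cannot be told apart from a difference between the ages. One day 0 RNA served for array 3 at both ages, and no other day 0 RNA was used on more than 1 array. The number of pups behind each RNA was not given in the sources used here.

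In the newborn mouse ovary, nests of oocytes break down and each surviving oocyte is enclosed by flat pregranulosa cells to make a primordial follicle. The first of these follicles then start to grow while stroma and vessels expand around them. The 21 genes come from several branches of cell biology: heme synthesis and the red cell surface, energy metabolism, lysosomes and their acidification, leukotriene handling, complement and matrix proteins, peptidases, and intracellular machinery. They share no single pathway in their annotation.

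Markers of the tissue and of the cells it could hold were read on the same arrays. The 7 probes of 5 oocyte genes had median log2 ratios of 2.24, 2.61 and 2.63 on day 4 arrays 1, 2 and 3, and the 2 granulosa probes had medians of 0.60, 0.57 and 0.41. All 7 epithelial probes, of Krt8, Krt18, Krt19 and Epcam, had day 4 means below 0, with medians of -0.90, -1.38 and -0.20. The 3 endothelial probes had medians of -0.51, -0.13 and -0.78, with Podxl at -0.98 and -1.29 on arrays 1 and 2, Pecam1 at -0.51, -0.02 and -0.78, and Cdh5 at 0.13 and -0.13. The 4 probes of smooth muscle and stroma had medians of 0.70, 0.46 and 0.37, and the part of these cell types in the values of the 21 genes was not tested. None of the 6 listed leukocyte markers was on the array. Because whole ovaries were used, a lower ratio for a gene may reflect fewer cells of a type or less RNA per cell, and these cannot be told apart. Day 2 arrays 1 and 2 ran against each other over all probes (r = -0.675 over 8272 probes), although the file headers give both the same dyes, whereas the 3 day 4 arrays correlated at 0.444 to 0.752. The direction of day 2 is therefore not settled, and day 2 summaries are also given with the sign of array 1 or array 2 turned. As deposited, the 7 oocyte probes had medians of -0.03, 0.88 and 0.70 on day 2 arrays 1, 2 and 3. The 6 erythroid probes had medians of -0.12, 1.02 and -0.24. Whether either array is reversed was not tested.

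The 21 genes had day 4 means between -1.18 and -0.62 on the log2 scale, with a median of -0.81, where the 5270 probes with 3 values had a median of 0.00. On single arrays their medians were -0.72, -0.67 and -0.79. For 20 of the 21, every repeat spot with a value on every day 4 array was below 0. The exception was 1 spot of Arpc5 at 0.01. The selection on array means left little room for a spot above 0. On day 4 array 1, M6pr, Metap2, Polr2h and Cdca3 rested on 2 repeats each and Sparc on 1. The lowest of a gene's 3 values lay on array 3 for 13 genes, on array 1 for 4 and on array 2 for 4. Array 3 was also the widest over all probes, with an SD of 0.61 against 0.42 on array 1 and 0.47 on array 2. On it 15.5% of all probes with a value were at -0.5 or lower, against 6.07% and 8.56%. For the 21 genes, the median SD over the 3 day 4 arrays was 0.18, and the median SD of the repeats within an array was 0.12.

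**Figure D1:**
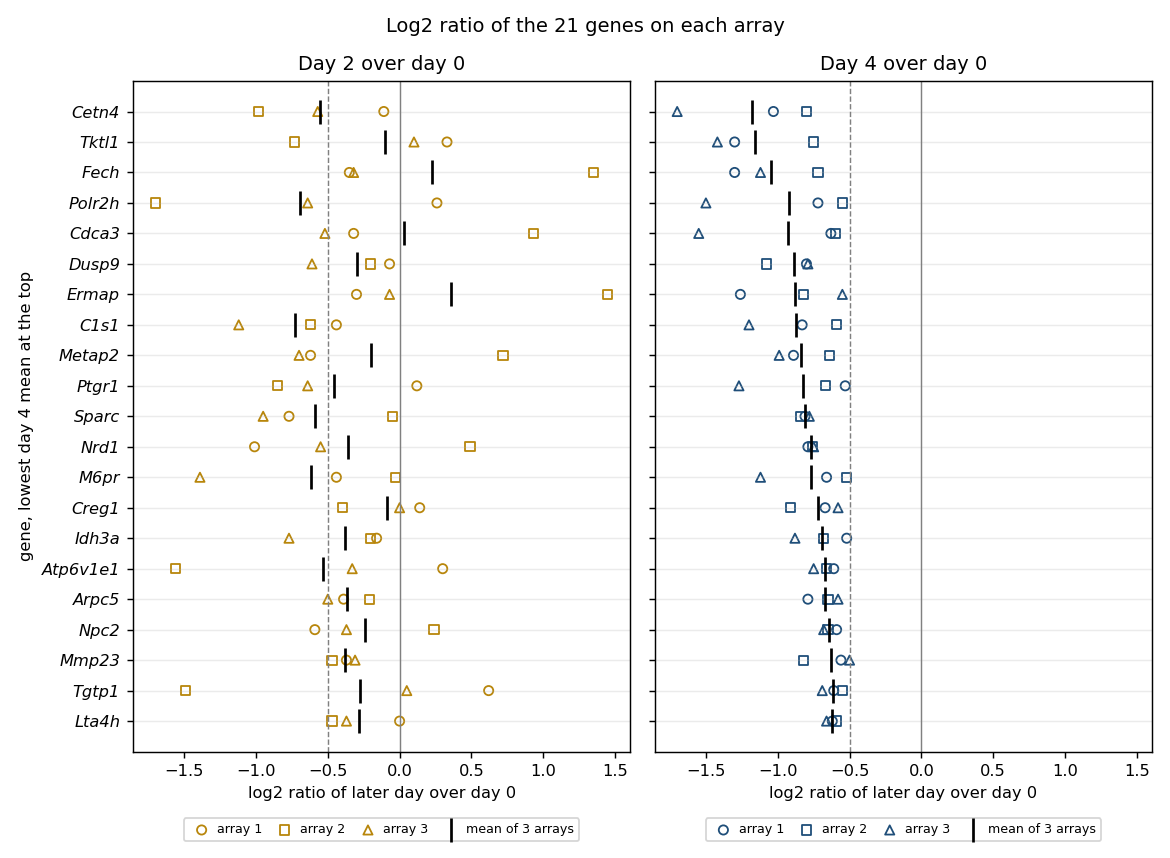
Log2 ratio of the later day over day 0 for each of the 21 genes on day 2 (left) and day 4 (right), with 1 symbol per array, a black bar for the mean of 3 arrays and a dashed line at -0.5. All day 4 symbols lie at or left of -0.5, as the selection required, while the day 2 symbols lie on both sides of 0 and spread between -1.70 and 1.45.

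The selection placed a line through a continuous range of values. The gene just inside it was Mmp23, whose highest day 4 value was -0.5001. The named probe just outside it was interleukin enhancer binding factor 3, with a highest value of -0.4998, followed by guanosine diphosphate dissociation inhibitor 1 at -0.497. A further 41 named probes were at -0.5 or lower on day 4 arrays 1 and 2 but had no value on array 3, which held values for 5630 probes against 7775 on array 1 and 8272 on array 2. Another 51 were at or below the line on arrays 1 and 2 and above it on array 3. In the other direction, 36 named probes with the same names left out were at 0.5 or higher on all 3 day 4 arrays.

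Fech and Ermap were listed here as erythroid genes, and the cells that hold their RNA in the ovary were not examined. Fech, ferrochelatase, inserts iron into protoporphyrin in the last step of heme synthesis. Its log2 ratios were -1.30, -0.72 and -1.12 on day 4 arrays 1, 2 and 3, a mean of -1.05 ± 0.30 (SD, n = 3), which is 48.5% of the day 0 level. Ermap, an erythroid cell surface protein that carries the Scianna blood group antigens in humans, had ratios of -1.26, -0.82 and -0.55, a mean of -0.88 ± 0.36 (SD, n = 3). Both genes were lowest on array 1. At day 2 their values split in the same way by array. Fech stood at -0.35 and -0.32 on arrays 1 and 3 and at 1.35 on array 2, and Ermap at -0.30, -0.07 and 1.45. The value of 1.45 carried 1 of the authors' flags. The day 2 means were 0.22 for Fech and 0.36 for Ermap. Without the flagged value the mean of Ermap was -0.19, and with array 2 turned the means of Fech and Ermap were -0.68 and -0.61.

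The array carried 6 of 11 listed erythroid genes, Fech and Ermap among them, whose day 4 sign the selection fixed. Of the other 4, 3 had day 4 means below 0, where 50.2% of all probes with 2 or 3 day 4 values did. Blvrb, biliverdin reductase B, an enzyme abundant in red cells, had -1.59 and -1.33 on day 4 arrays 1 and 2 and no value on array 3. Gata1, the erythroid transcription factor, had -0.43 and -0.71 on the same arrays. Hba-a1, an alpha globin gene, had 0.67 on array 2 and -1.64 on array 3, and Car2, carbonic anhydrase 2, had 0.02, 0.02 and -0.03. Globin was thus above 0 on array 2, where Fech and Ermap were below it. On day 2 array 2, Hba-a1 stood at 1.29 and Blvrb at 0.74, on the same side as Fech and Ermap. The share of these values that blood in the tissue contributes was not tested. Of the other heme enzymes, 2 probes of aminolevulinate dehydratase averaged -0.43 and -0.17, and coproporphyrinogen oxidase had -0.59, -0.27 and 0.21. These 3 probes were below 0 on arrays 1 and 2 and above 0 on array 3.

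The promoter of Ermap is shown because Gata1 is the factor that defines the red cell lineage and was itself on the array. The 250 bases before the annotated start, chr4:119189996-119190245 on the minus strand of GRCm38.p6 from RefSeq, hold 1 match to a GATA motif, searched as AGATAA or TGATAA on both strands. The capitals mark the match, which lies 67 bases before the start and reads as TTATCA on the coding strand.
Ermap: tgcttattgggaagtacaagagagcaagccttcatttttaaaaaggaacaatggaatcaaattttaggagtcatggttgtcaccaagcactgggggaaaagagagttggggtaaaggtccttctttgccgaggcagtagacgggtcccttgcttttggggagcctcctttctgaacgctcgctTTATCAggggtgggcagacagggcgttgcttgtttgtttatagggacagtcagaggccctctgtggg
Of the 21 genes, 17 had a promoter in the RefSeq table, and 6 of these 17 held a GATA match, where 18.8% of all genes in the table did. The 6 were Ermap, Cdca3, Creg1, Npc2, Tgtp1 and Tktl1, and only Ermap is among the listed erythroid genes. A match describes the letters in the window only. Fech was not among the 17.

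Tktl1 and Idh3a act in energy metabolism. Tktl1, transketolase-like 1, is a relative of the pentose phosphate enzyme transketolase. It had log2 ratios of -1.30, -0.75 and -1.42 on the day 4 arrays, a mean of -1.16 ± 0.36 (SD, n = 3), or 44.8% of the day 0 level. Its day 2 values were 0.33, -0.73 and 0.10. Arrays 1 and 3 were thus above 0 at day 2 and lower than -1 at day 4. The 1 probe of transketolase itself had -0.13, -0.21 and -0.11 at day 4, closer to 0 than Tktl1 on every array. Idh3a, the catalytic subunit of the NAD-dependent isocitrate dehydrogenase of the citric acid cycle, had -0.52, -0.68 and -0.88 at day 4. At day 2 the selected probe of Idh3a was below 0 on all 3 arrays, at -0.16, -0.20 and -0.77. Idh3b, a partner subunit, had -0.58 and -0.41 on the 2 day 4 arrays with a value.

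Npc2, M6pr, Atp6v1e1 and Creg1 belong to the lysosome and its supply. Npc2 binds cholesterol in the lysosome and passes it to Npc1. It had log2 ratios of -0.59, -0.65 and -0.68 on the day 4 arrays, a mean of -0.64 ± 0.05 (SD, n = 3), and -0.59, 0.24 and -0.37 at day 2. M6pr, the cation-dependent mannose-6-phosphate receptor, carries newly made hydrolases to that compartment. Its day 4 ratios were -0.66, -0.52 and -1.12, and its day 2 ratios were -0.44, -0.03 and -1.39. For M6pr, array 3 was the lowest at both ages, and these 2 arrays share their day 0 RNA. Atp6v1e1, a stalk subunit of the proton pump that acidifies lysosomes, had -0.61, -0.66 and -0.75 at day 4. These 3 values lay close together, whereas its day 2 values were 0.30, -1.56 and -0.33. Creg1, a secreted glycoprotein also found in endosomes and lysosomes, had -0.67, -0.91 and -0.58 at day 4 and 0.14, -0.40 and 0.00 at day 2.

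Other parts of the lysosome on the array were spread around 0. Of 15 other probes for subunits or partners of the proton pump, 10 had day 4 means below 0, and the means covered -1.28 to 1.02. The 3 probes of subunit V0 C averaged -1.28 from 1 array, -0.60 from 2 arrays and -0.62 from 3 arrays. By contrast, 1 probe of subunit a isoform 4 averaged 1.02 and the other -0.28, both from 3 arrays. Of 18 other probes for lysosomal hydrolases and cholesterol transfer, 12 had means below 0, with a median of -0.05. Cathepsin Z had -0.79, -1.24 and 0.15, and the 2 probes of Npc1 averaged -0.85 from 1 array and 0.04 from 3 arrays. The other 2 probes of cathepsin B averaged -0.89 from 1 array and 0.26 from 2. These relatives, and those of the other families given here, were picked after their values could be seen.

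**Figure D2:**
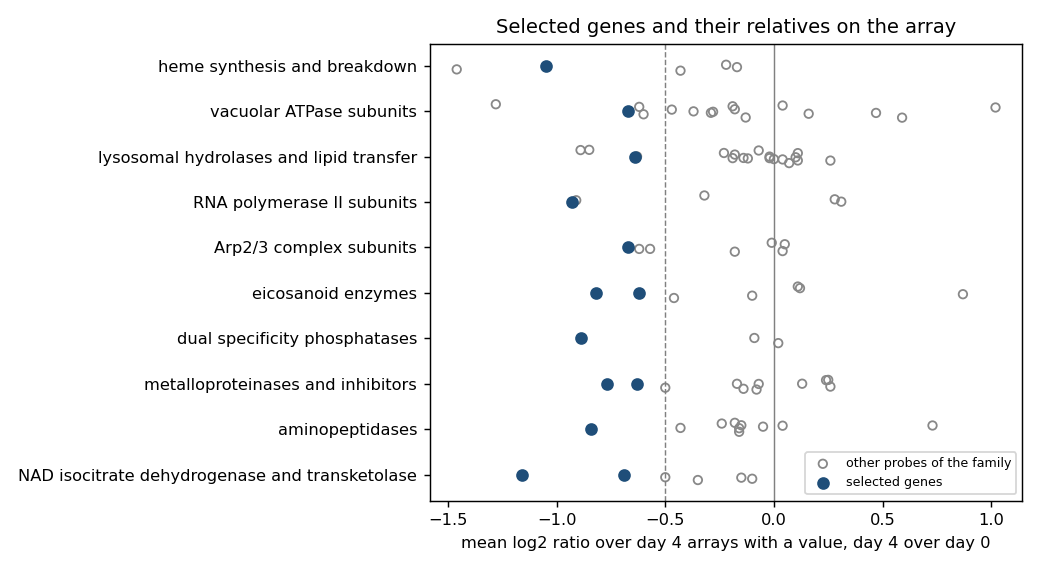
Mean log2 ratio of day 4 over day 0 for the 13 of the 21 genes that were set in a family (filled) and for the other probes of the same family (open), averaged over the day 4 arrays with a value. The relatives lie on both sides of 0 in most families, while the probes for heme enzymes and for isocitrate dehydrogenase and transketolase are all below 0.

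Lta4h and Ptgr1 act one after the other on leukotrienes, lipid mediators of inflammation. Lta4h makes leukotriene B4, and Ptgr1 inactivates it. Lta4h had log2 ratios of -0.62, -0.59 and -0.66 on the day 4 arrays, a mean of -0.62 ± 0.03 (SD, n = 3), and 0.00, -0.47 and -0.37 at day 2. Ptgr1 had -0.53, -0.67 and -1.27 at day 4, and 0.12, -0.85 and -0.64 at day 2. Lta4h varied little between day 4 arrays, whereas Ptgr1 was lowest on array 3. Of the prostaglandin and lipoxygenase enzymes on the array, prostaglandin E synthase had 1.02 and 0.72 on its 2 day 4 arrays, the opposite direction, and arachidonate 12-lipoxygenase had 0.03, 0.07 and 0.27.

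C1s1, Sparc and Mmp23 encode proteins that act outside the cell or at its surface. C1s1 is a serine protease of the first complement complex. Its log2 ratios were -0.83, -0.59 and -1.20 on the day 4 arrays, and it was also below 0 on every day 2 array, at -0.44, -0.62 and -1.12. Its day 2 mean was -0.72 ± 0.35 (SD, n = 3), and it was -0.43 with array 1 turned and -0.31 with array 2 turned. The gene has a close copy, C1s2, that a cDNA clone may also capture. Mmp23, a membrane-anchored matrix metalloproteinase known from human tissue for expression in reproductive organs, had -0.56, -0.82 and -0.50 at day 4. Its day 2 values were -0.37, -0.47 and -0.31, and their mean of -0.38 became -0.14 with array 1 turned and -0.07 with array 2 turned. The other 9 probes for metalloproteinases and their inhibitors had day 4 means from -0.50 to 0.26, with 5 of the 9 below 0.

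Sparc, a secreted protein that binds collagen and modulates how cells attach to matrix, showed a difference between probes. The selected probe had -0.81, -0.84 and -0.78 on the day 4 arrays and -0.77, -0.05 and -0.95 at day 2. Another Sparc probe had 0.63 and 0.35 on day 4 arrays 2 and 3, and the remaining one had -0.16 and 0.42, with no value on array 1 for either. On day 4 array 1 the selected probe itself rested on 1 repeat. The direction of Sparc at day 4 is thus that of 1 of its 3 probes.

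Another 4 of the 21 genes also had further probes. Ptgr1 had a second probe with -0.10, -0.25 and -1.03 on the day 4 arrays, below 0 on all of them. Idh3a had one probe with -0.34 and -0.35 on arrays 1 and 2, and another with -0.18, -0.12 and 0.00. The second probe of Arpc5 had 0.16, 0.09 and -0.12, and that of Cdca3 had -0.17, 0.04 and 0.33. Of these 7 further probes in 5 genes, 2 were below 0 on every day 4 array with a value, and 0 were at -0.5 or lower on all of theirs. For Arpc5, Cdca3 and Sparc the probes thus disagreed in sign on at least 1 array. The clone sequences were not used here, so which transcripts each probe captures was not examined.

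**Figure D3:**
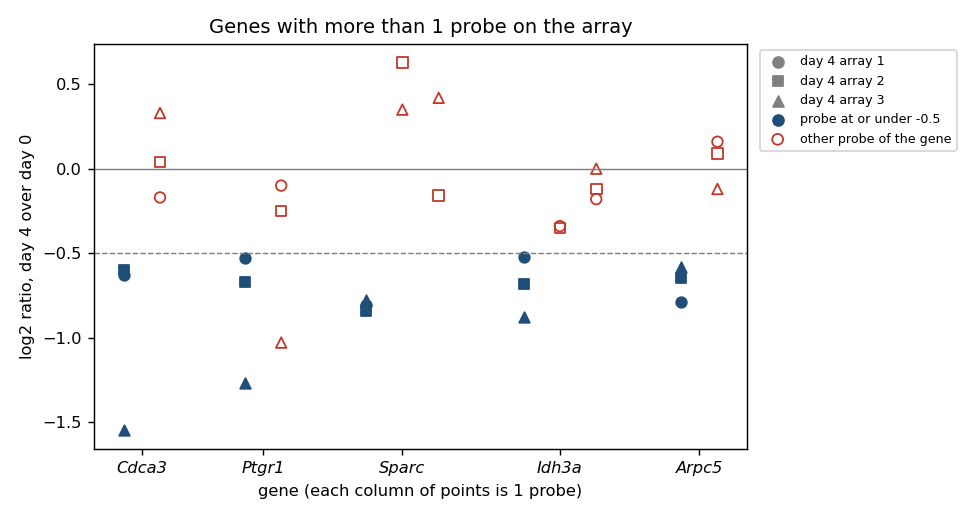
Log2 ratio of day 4 over day 0 for the 5 genes with more than 1 probe, with the selected probe filled and the other probes open, and 1 symbol shape per day 4 array. The selected probe is the lowest of its gene on every array where another probe has a value, which the selection on these arrays made likely. The other probes of Sparc reach 0.63 and have no value on array 1.

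Metap2 and Nrd1 are metallopeptidases. Metap2 removes the first methionine from new proteins. Its log2 ratios were -0.89, -0.64 and -0.99 on the day 4 arrays, a mean of -0.84 ± 0.18 (SD, n = 3), and -0.62, 0.72 and -0.70 at day 2. Metap2 was the only gene of the 21 at -0.5 or lower on all 3 day 2 arrays when array 2 was turned. Nrd1, nardilysin, cleaves peptides at pairs of basic residues. It had -0.79, -0.76 and -0.75 at day 4, with an SD of 0.02, and -1.01, 0.49 and -0.55 at day 2. The other 9 aminopeptidase probes had a median day 4 mean of -0.16, and methionyl aminopeptidase 1, which also removes the first methionine, had 0.01 and 0.08 on its 2 arrays.

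Polr2h, Cdca3, Cetn4, Arpc5, Dusp9 and Tgtp1 act inside the cell. Cetn4, a calcium-binding centrin of centrosomes and basal bodies, had the lowest day 4 mean of the 21. Its log2 ratios were -1.03, -0.80 and -1.70 on the day 4 arrays, a mean of -1.18 ± 0.46 (SD, n = 3), or 44.2% of the day 0 level. At day 2 it was below 0 on every array, at -0.11, -0.98 and -0.57. Its spots were also among the dimmest of the 21, between the 18.5 and 30.4 percentile of intensity over the 6 arrays. Polr2h, a subunit common to the nuclear RNA polymerases, had -0.72, -0.55 and -1.50 at day 4 and 0.26, -1.70 and -0.64 at day 2. Array 3 of day 4 was the low one for both genes. Other subunits of RNA polymerase II had day 4 means of -0.91 for subunit A, -0.32 for E, 0.28 for C and 0.31 for J.

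Cdca3, annotated under its older name as the C8 gene of a gene rich cluster, promotes entry into mitosis. It had log2 ratios of -0.63, -0.60 and -1.55 on the day 4 arrays and -0.32, 0.93 and -0.52 at day 2. Its promoter is shown because the CCAAT box is a common element of cell cycle promoters. The 250 bases before its start, chr6:124829926-124830175 on the plus strand of GRCm38.p6 from RefSeq, hold 2 matches. The capitals mark CCAAT, 71 bases before the start, and its reverse complement ATTGG, 104 bases before it. The GATA match in the same window is not marked.
Cdca3: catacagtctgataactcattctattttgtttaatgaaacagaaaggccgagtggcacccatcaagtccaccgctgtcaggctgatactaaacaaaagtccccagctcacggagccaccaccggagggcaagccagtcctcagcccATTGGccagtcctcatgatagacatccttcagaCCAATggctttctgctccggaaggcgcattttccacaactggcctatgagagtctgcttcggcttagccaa
The motif, searched as CCAAT on both strands, was found for 11 of the 17 genes with a promoter in the table, and for 37.5% of all genes in it. The GC box, GGGCGG on both strands, was found for 9 of the 17 and for 35.4% of all genes, and the E-box CACGTG for 1 of the 17 and for 6.86%. The match of the E-box was in Arpc5. No difference from all genes was tested.

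Arpc5 is a subunit of the Arp2/3 complex, which starts branched actin filaments. Its selected probe had log2 ratios of -0.79, -0.65 and -0.58 at day 4 and was below 0 on all 3 day 2 arrays, at -0.39, -0.21 and -0.50. The probe of subunit 4 had -0.24 and -1.0 on day 4 arrays 1 and 2, and subunit 1B had 0.04, -0.20 and 0.15. Dusp9, a phosphatase that switches off MAP kinases, had -0.80, -1.08 and -0.79 at day 4, and -0.07, -0.20 and -0.61 at day 2. The other 2 dual specificity phosphatases on the array, Dusp10 and Dusp19, averaged 0.02 and -0.09. Tgtp1, an interferon-induced GTPase, had -0.61, -0.55 and -0.69 at day 4 and 0.62, -1.49 and 0.05 at day 2. It has a near-identical copy, Tgtp2, and the annotation does not say which of them the clone represents.

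Day 2 values played no part in choosing the genes, although array 3 of both ages shares a day 0 RNA. These 2 arrays correlated at 0.767 over 5630 probes, so day 2 array 3 is not independent of the selection. At day 2 the 21 genes had median log2 ratios of -0.30, -0.21 and -0.52 on arrays 1, 2 and 3. The numbers below 0 were 14, 15 and 19 of 21, where 50.3%, 48.3% and 50.4% of all probes were below 0. Turning the sign of array 1 leaves 7 of 21 below 0 on it, beside 49.7% of all probes, and turning that of array 2 leaves 6, beside 51.7%. The day 2 mean was below 0 for 18 of the 21 genes and for 47.9% of all probes. Fech, Ermap and Cdca3 were the exceptions. The count was 15 with array 1 turned, beside 49.1% of all probes, and 13 with array 2 turned, beside 49.6%. It was 17 without array 3. Without flagged values it was 19, since the mean of Ermap was then -0.19. The median of the day 2 means was -0.36 for the 21 genes and 0.01 for all probes, and for the 21 it was -0.25 with array 1 turned, -0.23 with array 2 turned and -0.24 without array 3.

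Agreement over all day 2 arrays was limited. Each count below that includes array 3 is not independent of the selection, because its day 0 RNA also served on a selecting array. Of the 21 genes, 8 were below 0 on all 3 arrays, where 7.33% of all probes were: Cetn4, Dusp9, C1s1, Sparc, M6pr, Idh3a, Arpc5 and Mmp23. With array 1 turned the count was 5, beside 22.3% of all probes, and with array 2 turned it was 6, beside 16.6%. These counts rest on the selected probe of each gene. As deposited, the other probes of Sparc had 0.99 and 2.38 on day 2 array 2. Those of Idh3a had 0.66 on array 2 and 0.36 on array 1, and that of Arpc5 had 0.65 on array 1. No other probe of these genes was thus below 0 on all 3 day 2 arrays. None of the 21 was at -0.5 or lower on all 3, a level that 0.0363% of all probes reached. On arrays 2 and 3 alone, Cetn4, Polr2h, C1s1 and Ptgr1 were at -0.5 or lower, 4 of 21, where 3.26% of all probes were. With array 2 turned these 4 were not, and 2 others, Cdca3 and Metap2, were, beside 1.75% of all probes. Arrays 1 and 2 had opposite signs for 13 of the 21 genes and for 74.9% of all probes.

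**Figure D4:**
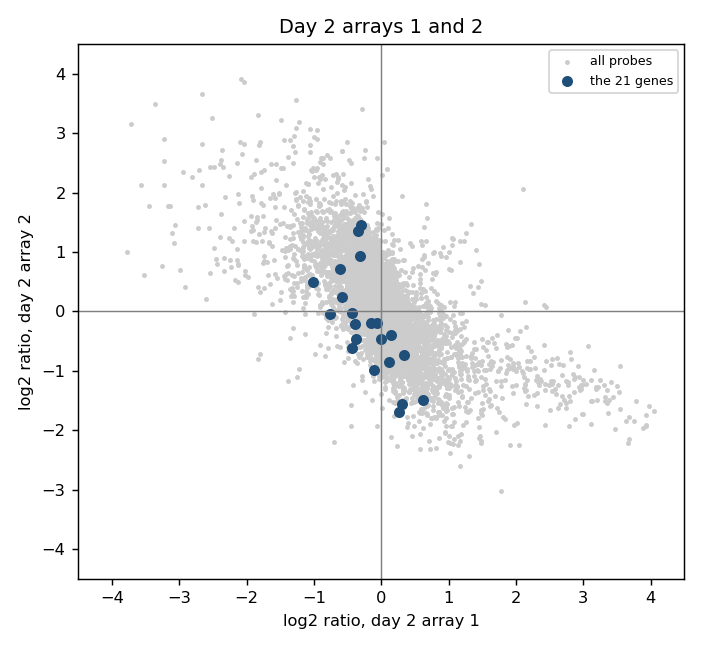
Log2 ratio of day 2 over day 0 on array 2 against that on array 1 for all 8272 probes (grey) and the 21 genes (blue). The cloud runs from upper left to lower right (r = -0.675), and the 21 genes follow it, with Ermap (a flagged value) at 1.45, Fech at 1.35 and Polr2h at -1.70 on array 2.

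With limma on the 3 day 2 arrays and Benjamini-Hochberg adjustment over all 8272 probes, 0 of the 21 genes passed an adjusted p of 0.05, and 0 of all probes did (0.0% in each direction). Without adjustment, 99 probes had a p under 0.05. Of these, 39 were lower at day 2, or 0.471% of all, and they included 2 of the 21 genes. C1s1 had a fitted log2 ratio of -0.72 with an SE of 0.19 (limma unadjusted p = 0.0222, n = 3), and Mmp23 had -0.38 with an SE of 0.13 (limma unadjusted p = 0.0461, n = 3). Arpc5, Sparc and Cetn4 followed with unadjusted p of 0.0619, 0.0699 and 0.0709 in the same limma fit. The selected probes of all 5 genes were below 0 on each day 2 array, unlike the other probes of Arpc5 and Sparc. The adjusted p was 0.999 for each of the 21, so no difference at day 2 was detectable with 3 arrays. With the sign of array 1 turned, 2 of the 21 genes had an unadjusted limma p under 0.05, beside 1188 of all 8272 probes. With array 2 turned, 4 of the 21 did, beside 608 of 8272. In both cases 0 passed after adjustment.

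The spots of the 21 genes were mostly bright. Of the 21, 15 lay above the median intensity of the array on all 6 arrays, and Cetn4 and Dusp9 lay below it on all 6. The other 4, Tktl1, Ermap, Creg1 and Tgtp1, were above it on some arrays only. The median percentile of the 21 was between 76.5 and 84.8 over the arrays. Ermap had the widest range, from the 12.0 percentile on day 4 array 3 to the 63.2 percentile on day 2 array 2, the array on which its ratio was highest. Brightness depends on clone length and labelling as well as on RNA amount, and levels were not compared between genes. On the day 4 arrays, 4 of the 21 genes, Cetn4, Ptgr1, M6pr and Lta4h, carried at least 1 of the authors' flags. On the day 2 arrays, the values of Ermap on array 2 and of Creg1 on array 1 were flagged.

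**Figure D5:**
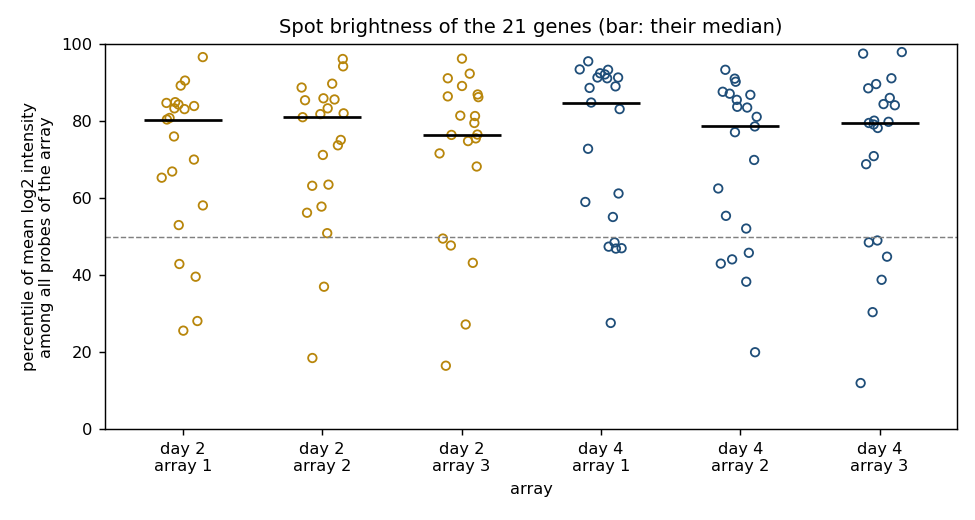
Percentile of the mean log2 intensity over both channels among all probes of an array, for each of the 21 genes (points) on each array, with a bar at their median and a dashed line at the 50th percentile. The medians lie between 76.5 and 84.8 on the 6 arrays, and a few genes lie below the dashed line on each.

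The wider groups to which the genes belong were counted over all named probes in 16 lists drawn from the annotation. In the limma fit of day 4 against day 0 over all 6 arrays, 39 of 8135 probes passed as higher (0.479%) and 0 as lower (0.0%). At an unadjusted p under 0.05, 349 were lower. The error in this fit is shared by both ages, so the disagreement among the day 2 arrays enters the day 4 test. With day 4 arrays alone, 133 of 8135 probes passed as higher and 33 as lower, and no counts by list are given for that fit. The absence of lower probes from the lists below therefore holds for the fit over all 6 arrays only. In it, no list held a probe that passed as lower at day 4. None held a probe that passed at day 2. The iron, heme and red cell list, which contains Fech and Ermap, had 0 of 27 probes past the test, and its median log2 ratio at day 4 was -0.17. The list of glycolysis and central energy metabolism, with Tktl1 and Idh3a, had 0 of 52 past the test and a median of -0.22, with 40 of the 52 below 0. All 8135 probes had a median of 0.00, and 4081 of them were below 0.

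In the lists of other enzymes, with Metap2, Ptgr1, Mmp23 and Lta4h, 2 of 192 probes passed, both as higher. They were oligoadenylate synthetases 1C and 1D, with fitted log2 ratios of 3.13 and 3.05 (limma adjusted p = 0.00954 and 0.0208). In the list of growth factors, cytokines and receptors, with M6pr, 1 of 165 passed, the channel kinase Trpm7, which was higher at day 4 with a log2 ratio of 2.17 (limma adjusted p = 0.0153). The lists of actin and motor proteins with Arpc5 (86 probes tested), small GTPases with Tgtp1 (85), kinases and phosphatases with Dusp9 (150) and RNA handling with Polr2h (81) had 0 past the test. Their day 4 medians were 0.00, -0.07, -0.09 and -0.15. The remaining 8 of the 21 genes were in none of the 16 lists.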

How the data were processed

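Per the file headers, the log2 ratios set day 2 or day 4 (Cy5) over day 0 (Cy3). The authors deposited 4 repeats, their mean, a mean log2 intensity and flags for each probe and array. The flag columns (another unit, marks with no stated meaning) were deposited by the authors and used only to leave values out. The submitters' processing notes name R 1.7.1, while how background was corrected and arrays were normalized is not given in the sources used here. Repeats were averaged for every probe on every array without renormalizing, and the result equalled the authors' mean within 0.01.

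The genes, lists and tests were chosen with earlier results of these data known, and the families after their values were seen. All 21 genes are named. The day 2 arrays were fitted alone with limma 3.58.1 (R 4.3.3, lmFit and eBayes, 2-sided), so that the arrays behind the selection stayed out. For day 4, 1 mean per age was fitted to all 6 arrays, over probes with values on at least 2 arrays of each age, and gave the counts over lists only. Benjamini-Hochberg adjustment covered every probe in a fit, and an adjusted p under 0.05 counted as past the test. The fits were tested on simulated data. The median SE at day 2 was 0.19, and the number of arrays limits the precision. Older clone names of 5 genes were updated through synonyms of a RefSeq gene table, which served for names. Promoter sequences came from RefSeq (GRCm38.p6). Alternatives covered centring, flags, the median of repeats, the deposited value table, scaling, dim probes, the sign of a day 2 array, the samples fitted, a replicate block and each array left out.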

Additional observations from a re-analysis of the deposited data

How the results depend on the processing

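The number of genes selected was 24 with arrays centred on their medians, 24 with the median of the repeats, 17 without flagged values and 21 from the deposited value table. It was 52 with a limit of -0.4, 9 with -0.6 and 57 to 113 when 1 day 4 array was left out, since fewer values then had to pass. Of the 147 alternative day 4 means of the 21 genes, 147 were below 0 and within 1 SD of the value given. The selection on the same arrays left little room for a mean above 0. Of 189 alternative day 2 means, 178 were within 1 SD, and the others came from turning a day 2 array. At either age, leaving out 1 of 3 arrays cannot move a mean by a full SD, so these counts are no test of robustness. The count at -0.5 or lower on all day 2 arrays was 1, Metap2, with array 2 turned, and 0 to 4 with 1 day 2 array left out. The median of the day 2 means was -0.41 to -0.24 with 1 array left out, the value of -0.24 being that without array 3. In 2 alternatives chosen after seeing the data it was -0.29 without the genes that have another probe and -0.37 without Fech and Ermap. Calls at day 2 were 0 under every alternative run, for all probes and for the 21 genes. Calls at day 4 over all probes numbered 39, 166 with day 4 arrays alone (133 higher, 33 lower), 96 after scaling between arrays (88 higher, 8 lower), 56 without dim probes and 0 to 0 with 1 day 4 array left out. The cause was not tested. Same-numbered arrays of the 2 ages share a number, and array 3 a day 0 RNA. Their deviations correlated at 0.365, 0.053 and 0.515, and day 4 array 2 correlated best with day 2 array 1 (0.091), so the numbers were not taken as a pairing. With a replicate block, 21 probes passed at day 4 and 0 at day 2. Precision is limited by 3 arrays per age and by probes without a value on day 4 array 3.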
